A study of Mus musculus with 2 samples.

Results

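The genes described are 44 cell cycle phase genes, 20 that are used as markers of S phase and 24 that are used as markers of mitosis. They were listed by symbol from textbook knowledge and not by a rule on measured values, but with earlier results of these data known. All 44 of 44 were found among the 32285 genes of the count table. The table holds 2 droplet libraries of single cells from mouse embryos at E14, 1 per genotype, made from cells sorted for the reporter tdTomato (tdT). The heads and viscera of the embryos had been removed. Both genotypes carry Myf5-Cre, which acts in the muscle lineage and in other cells that once expressed Myf5, and a Cre-dependent tdT reporter at Rosa26. The library labelled f/f is titled with 2 floxed alleles of SRSF2, a splicing factor, and the library labelled f/w with 1 floxed and 1 wild-type allele. The sort limits every share to cells in which Cre had acted, and the labels do not say how many embryos each library came from.

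The labels could not be taken at face value. Srsf2 itself was at 219 CPM (UMIs of a gene scaled to 1000000 UMIs of the same cells) in the library labelled f/f and at 153 CPM in the library labelled f/w, a log2 ratio of -0.52 (95% interval -0.54 to -0.49), so the library with 2 floxed alleles on its label had more of the targeted transcript. Muscle cells made up 13.3% of the library labelled f/f, 1663 cells, and 0.74% of the library labelled f/w, only 77 cells. The headings of the study's own quality pages give the opposite assignment. The study's text has fewer retained cells for the controls than for the mutants, which is the order that the labels give here. It gives skeletal muscle cells a larger share in the controls than in the mutants, the reverse of the order by label here. The counts are 3′ tags, the deleted part of Srsf2 is not named in the text used here, and Srsf2 overlaps other genes, so this level is a limited check. All ratios below are therefore given as the library labelled f/w over the library labelled f/f, and no direction is given as one of genotype.

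A UMI (unique molecular identifier) marks 1 captured transcript. With 1 library per label there was no replicate and no test between the libraries. Intervals are exact 95% intervals of the counts and cover counting error only, while cells differ far more than this. After limits on depth and mitochondrial UMIs, 12523 and 10345 cells were kept, with medians of 10751 and 9480 UMIs in the libraries labelled f/f and f/w. Of all barcode sequences, 50 (0.219%) occurred in both libraries. Cells were given a type when at least 3 of its 8 markers had a UMI, with at least 2 markers more than the next list, and the names stand for these marker sets. The 8 muscle markers were Pax7, Myf5, Myod1, Myog, Msc, Cdh15, Chrna1 and Mymk. Among them, Cdh15 and Myod1 had a UMI in the most muscle cells, 86.1% and 83.6%, and Myf5 in the fewest, 34.4%. In cells of other types it was 3.06%, 2.74% and 0.93%. These markers set the type, so the shares describe the rule and are no check of it. Levels are 3′ counts and were compared between cells and not between genes.

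Dividing cells copy their DNA in S phase and part the copies in mitosis. Genes for licensing of replication origins, the MCM helicase, nucleotide supply and E-type cyclins are switched on by E2F factors around the entry into S phase. Genes for the cyclins A and B, Cdk1, spindle motors, kinetochores and the anaphase-promoting complex rise later and depend on the DREAM and MuvB complexes, which read a short element called the CHR, often beside CCAAT boxes bound by NF-Y. Muscle progenitors that express Pax7 divide, and they leave the cell cycle when they turn on myogenin (Myog) and differentiate.

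The promoters of both lists are shown here because they differ in part between the lists, in a feature that no expression value set. RefSeq windows of GRCm38.p6, from 250 bases before to 50 after the annotated start, were matched by symbol for 17 of the 20 S-phase and 20 of the 24 mitotic genes. Letters were searched on both strands. An E2F-type octamer (TTTCCCGC, TTTCGCGC, TTTGCCGC or TTTGGCGC) lay in the windows of 8 of 17 S-phase genes (47.1%), of 1 of 20 mitotic genes (5.0%) and of 2.6% of all 27025 genes. A CHR hexamer (TTTGAA or TTCGAA) lay in those of 15 of 20 mitotic genes, 3 of 17 S-phase genes (17.6%) and 21.7% of all genes. CCAAT was found for 17 mitotic genes (85.0%), 11 S-phase genes (64.7%) and 41.1% of all genes. In further lists of 30 genes per phase, described below, an octamer was found for 5 of 19 S-phase (26.3%) and 0 of 27 mitotic genes. A CHR hexamer was found there for 5 S-phase (26.3%) and 22 mitotic genes (81.5%). Counted by window, 2.26%, 19.2% and 37.4% of all windows hold the octamer, the hexamer and CCAAT. None of these 3 kinds of letters contains another, though octamers can overlap on opposite strands. A match describes letters and does not show binding. In the 6 windows of 150 bases before the start that follow, written 5′ to 3′ on the strand of the gene, capitals mark these letters on either strand. Mcm6 (chr1:128359706-128359855, minus strand) and Cdc6 (chr11:98908001-98908150, plus strand) are S-phase genes with octamers. E2f2 (chr4:136172124-136172273, plus strand, 1 of its 2 annotated starts) is the S-phase gene that was least bound to the S window in muscle cells of the library labelled f/f. Top2a (chr11:99024190-99024339, minus strand), Kif11 (chr19:37376232-37376381, plus strand) and Mki67 (chr7:135716380-135716529, minus strand) are mitotic genes with CHR and CCAAT letters. No annotated exon of GENCODE overlaps these windows.
Mcm6: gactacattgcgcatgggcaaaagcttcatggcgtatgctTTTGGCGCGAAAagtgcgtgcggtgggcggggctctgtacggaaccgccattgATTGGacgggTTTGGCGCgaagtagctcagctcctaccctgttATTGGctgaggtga
Cdc6: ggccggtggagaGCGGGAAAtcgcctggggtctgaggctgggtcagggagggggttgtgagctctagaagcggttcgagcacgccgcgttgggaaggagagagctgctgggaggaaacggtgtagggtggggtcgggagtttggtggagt
E2f2: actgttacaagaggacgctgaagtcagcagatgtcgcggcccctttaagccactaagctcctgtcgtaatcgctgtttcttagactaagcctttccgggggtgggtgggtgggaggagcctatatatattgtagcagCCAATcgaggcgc
Top2a: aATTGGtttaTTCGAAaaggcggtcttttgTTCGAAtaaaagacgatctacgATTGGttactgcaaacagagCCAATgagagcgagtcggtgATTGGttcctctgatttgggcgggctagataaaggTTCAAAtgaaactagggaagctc
Kif11: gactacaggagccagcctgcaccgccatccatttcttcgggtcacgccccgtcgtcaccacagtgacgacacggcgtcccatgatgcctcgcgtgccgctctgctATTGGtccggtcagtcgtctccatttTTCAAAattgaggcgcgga
Mki67: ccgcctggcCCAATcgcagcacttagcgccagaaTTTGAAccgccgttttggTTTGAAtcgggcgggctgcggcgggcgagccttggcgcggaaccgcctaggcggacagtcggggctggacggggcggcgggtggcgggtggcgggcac

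The 2 octamers of Mcm6 farthest from the start overlap on opposite strands. The E2f2 stretch printed holds a CCAAT and no octamer. Over the full windows of its 2 annotated starts, E2f2 had an octamer, a CHR hexamer and CCAAT. It is therefore among the 8 S-phase genes counted with an octamer. The S-phase genes Ung, Ccne1, E2f1 and Tyms and the mitotic genes Nusap1 and Birc5 had none of the 3 kinds of letters in their windows.

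Both lists were highest in the muscle cells outside the Myog group defined below. That group needs at least 3 Myog UMIs and no Pax7 UMI, so cells outside it can still hold Myog UMIs. Of the types with at least 50 cells, both lists were lowest in osteoblasts and neurons. Over all muscle cells labelled f/f the mitotic level was 2741 CPM, with an interval that overlaps that of pericytes. In the library labelled f/f, the S-phase genes together were at 2412 CPM (2379 to 2445) in the muscle cells that had Pax7, 1131 in fibroblasts, 868 in chondrocytes, 618 in neurons and 502 in osteoblasts. The mitotic genes together were at 3194 CPM (3156 to 3233) in Pax7 cells, 2786 in pericytes, 1798 in fibroblasts, 700.1 in neurons and 636 in osteoblasts. Muscle cells that were neither Pax7 nor Myog cells, as defined below, had the highest mitotic level of that library, 3391 CPM (3353 to 3430.1). Pericytes came close to muscle in the mitotic genes and less so in the S-phase genes, with 1425 CPM. Which type was highest for a gene depended on the library. Over 10 types with at least 50 cells in all, muscle had the highest level of 13 of 20 S-phase genes in the library labelled f/f and of 18 of 20 in the library labelled f/w. Among cells labelled f/f the helicase subunits Mcm3, Mcm5 and Mcm6 were highest in immune cells, at 139, 72.3 and 154 CPM, Mcm4 and Gins2 in fibroblasts, and Rrm1 and Uhrf1 in pericytes. Of the 24 mitotic genes, 10 were highest in muscle in each library. The others were mostly highest in pericytes, 11 in the library labelled f/f and 8 in the library labelled f/w. With both libraries pooled, 19 S-phase and 14 mitotic genes were highest in muscle, but muscle cells came nearly all from the library labelled f/f, with 1663 and 77 cells, and immune cells mostly from the library labelled f/w, with 128 and 617 cells. Many of these differences between neighbouring types are small, and the ranking has no test.

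**Figure D1:**
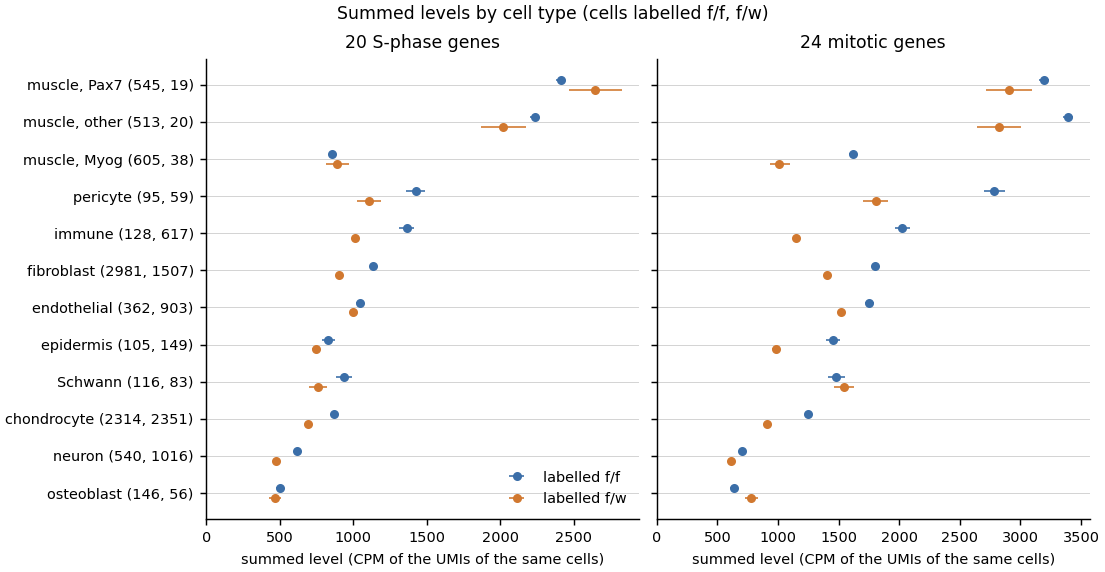
Summed level of the 20 S-phase genes and of the 24 mitotic genes in CPM for each cell type and muscle state, in the library labelled f/f (blue) and the library labelled f/w (orange), with exact 95% Poisson intervals and the cells of each library in brackets. The 3 muscle states are at the top and osteoblasts at the bottom. In the mitotic panel osteoblasts, at 636 and 781 CPM, are the type whose orange point lies right of the blue with intervals that do not overlap.

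The members did not range over the types to the same extent. Ccne1, cyclin E1, which drives entry into S phase with Cdk2, was at 178 CPM in muscle and 12.1 in immune cells of the library labelled f/f, a 14.7-fold range, and ranged 15.8-fold in the library labelled f/w. E2f2, an activating E2F factor, ranged 14.1-fold and 25.6-fold, with 62.0 and 40.2 CPM in muscle of the libraries labelled f/f and f/w. Cdc6, which loads the MCM helicase on origins, ranged 7.58-fold and 14.8-fold. Some of these ranges have low ends that rest on few UMIs. In the 83 Schwann cells labelled f/w, Cdc6 was at 3.53 and Ccne1 at 7.07 CPM. In osteoblasts labelled f/f, E2f2 had 13 UMIs. Pcna, the sliding clamp of DNA polymerase, ranged only 2.31-fold and 2.97-fold, Slbp, which binds histone mRNA, 2.80-fold and 2.64-fold, and E2f1 3.02-fold and 2.71-fold. Among the mitotic genes Anln, a scaffold of the cleavage furrow, ranged 9.39-fold and 5.98-fold, Plk1, a mitotic kinase, 5.62-fold and 8.28-fold, and Bub1b, a checkpoint kinase, 5.97-fold and 4.38-fold. Cdc20, an activator of the anaphase-promoting complex, ranged 4.57-fold and 2.34-fold, Aurka, a spindle pole kinase, 4.53-fold and 3.93-fold, and Birc5, a member of the chromosomal passenger complex, 4.04-fold and 4.36-fold. These genes were the widest and narrowest with the libraries pooled.

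In the 2 libraries as a whole, both lists were lower in the library labelled f/w. The S-phase genes went from 1220.0 CPM (1215 to 1226) in the library labelled f/f to 811 CPM (806 to 816), a log2 ratio of -0.59 (-0.60 to -0.58). The mitotic genes went from 1766 CPM (1759 to 1773) to 1096 CPM (1091 to 1102), a log2 ratio of -0.69 (-0.70 to -0.68). A gene was called lower or higher where the ratio was at least 1.5-fold and its interval left out 0. By this rule 14 of 20 S-phase and 19 of 24 mitotic genes were lower and 0 were higher, while 6.27% of all 18842 genes compared were lower and 16.2% higher. The medians were -0.66 and -0.77, beside 0.05 over all genes compared. Every one of the 44 ratios was below 0, from -2.06 to -0.16.

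By role, the widest gaps in the whole libraries were those of the E-type cyclins, with -1.31 (-1.35 to -1.26), and the E2F factors, with -1.10 (-1.17 to -1.03). E2f2 was at 20.5 CPM in the library labelled f/f and 4.91 in the library labelled f/w, a log2 ratio of -2.06 (-2.19 to -1.94). Ccne1 was at 77.1 and 23.3 CPM, a ratio of -1.73 (-1.78 to -1.67). Both had their highest level in muscle, and muscle cells were few in the library labelled f/w. In the cells outside muscle their ratios were -1.41 (-1.56 to -1.27) and -1.34 (-1.40 to -1.27), and 6 of 20 S-phase and 14 of 24 mitotic genes were called lower and 0 higher, beside 5.39% lower and 12.8% higher of all genes. These cells still hold the mixed and untyped cells, and 437 mixed cells labelled f/f but 26 labelled f/w reached 3 muscle markers. Among typed cells outside muscle, a choice made after the data were seen, only 2 S-phase genes (E2f2 and Ccne1) and 5 mitotic genes (Plk1, Aurkb, Bub1b, Hmmr and Anln) were called lower and 0 higher, beside 6.26% lower and 11.8% higher of all genes, and the ratios were -0.70 (-0.89 to -0.51) for E2f2 and -0.97 (-1.05 to -0.89) for Ccne1. Within fibroblasts Ccne1 was at 46.7 and 29.4 CPM, a ratio of -0.67 (-0.82 to -0.53), and within chondrocytes at 44.8 and 26.8 CPM, a ratio of -0.74 (-0.87 to -0.61). Cdc6 had a ratio of -1.03 (-1.11 to -0.94). Uhrf1, which keeps DNA methylation through replication, had a ratio of -0.91 (-0.97 to -0.85). E2f1 itself, at 18.8 and 13.4 CPM, had a ratio of -0.48 (-0.57 to -0.39) and did not reach the call. The smallest gaps were those of Slbp, at -0.18 (-0.21 to -0.14), Pcna, at -0.27 (-0.30 to -0.24), and Mcm4, at -0.35 (-0.39 to -0.31), of which the last is a helicase subunit. The other 5 helicase subunits lay between -0.83 and -0.49.

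In the mitotic list, Bub1b was lowest, at 26.5 and 12.1 CPM, with a ratio of -1.14 (-1.22 to -1.05). Top2a, which untangles sister DNA, was at 313 CPM in the library labelled f/f and 162 in the library labelled f/w, with a ratio of -0.95 (-0.97 to -0.93). Ccnb1, cyclin B1 and the partner of Cdk1 at the entry into mitosis, was at 51.5 and 26.8 CPM, a ratio of -0.94. Ccna2, cyclin A2, was at 50.02 and 26.1 CPM with the same ratio. Mki67, which coats mitotic chromosomes and is a common mark of cycling cells, was at 148 and 83.4 CPM, with a ratio of -0.83 (-0.86 to -0.79). The second B-type cyclin behaved otherwise. Ccnb2 was at 39.5 and 31.3 CPM, a ratio of -0.33 (-0.39 to -0.28). Cks2, a Cdk1 subunit, had the smallest gap, at -0.16 (-0.19 to -0.13), and Kif23 and Birc5 also stayed short of the call, at -0.34 and -0.45.

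Among the cells given a type, much of this gap went with the mix of cell types. Muscle held 25.4% of the S-phase UMIs and 26.1% of the mitotic UMIs in the library labelled f/f, against 2.05% and 1.83% in the library labelled f/w. With the levels of 12 types averaged at the same weights in both libraries, the ratios came to -0.28 (-0.30 to -0.26) for the S-phase genes and -0.40 (-0.42 to -0.39) for the mitotic genes, against -0.53 and -0.65 over the same typed cells without equal weights. The mixed and untyped cells are not in this average. Their S-phase and mitotic ratios were -0.65 and -0.83 in mixed cells and -0.85 and -0.79 in untyped cells. Both lists stayed lower within most types. In fibroblasts the ratios were -0.33 and -0.36, in chondrocytes -0.32 and -0.46 and in immune cells -0.43 and -0.82. In endothelial cells the S-phase ratio was -0.06 (-0.11 to -0.02) and the mitotic ratio -0.20 (-0.24 to -0.17). In the library labelled f/f, 128 cells were immune and 617 in the library labelled f/w. In immune cells 6 of 20 S-phase and 20 of 24 mitotic genes were called lower, beside 16.2% of all genes. Fibroblasts had 4 S-phase and 2 mitotic genes lower, with 4.71% over all genes, and chondrocytes 5 and 8, with 3.62%. Endothelial cells had 0 and 1, with 5.06%, and neurons 7 and 3, with 3.88%. No member was higher in these 5 types, where 4.3%, 4.59%, 1.93%, 2.14% and, in immune cells, 4.25% of all genes were. Pericytes had 3 of 18 S-phase and 11 of 24 mitotic genes lower and 0 higher, beside 4.81% lower and 3.72% higher of all genes. Osteoblasts differed, with 0 of 16 S-phase genes called and, of 18 mitotic genes, 1 lower and 3 higher, beside 6.57% lower and 2.22% higher of all genes. Bub1b was the one member lower by the rule in 6 of the 6 larger types. Mcm2, Ccne1 and Ccna2 were lower in 4 of 6, and 9 members in none. How many of all genes were lower in as many types was not counted. The types come from the same 2 libraries, so these counts do not show that such recurrence is unusual.

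A wider gap in the mitotic than in the S-phase genes was found in muscle, but was not particular to it. Epidermis had -0.57 and -0.15, pericytes -0.63 and -0.37, and immune cells were alike. The mitotic gap was not the wider one in neurons, Schwann cells, osteoblasts, neural progenitors and erythroid cells. In muscle cells the S-phase genes were at 1840.2 CPM (1824 to 1857) in the library labelled f/f and 1640.3 CPM (1570.0 to 1713) in the library labelled f/w, a log2 ratio of -0.17 (-0.23 to -0.10). The mitotic genes were at 2741 CPM (2721 to 2762) and 1982 CPM (1904 to 2062), a ratio of -0.47 (-0.53 to -0.41). Of the S-phase genes 3 of 20 were called lower, Mcm2, Ccne1 and E2f2, and of the mitotic genes 10 of 24, with none higher, while 5.98% of 7655 genes were lower and 2.1% higher. With mixed cells given the type with the most markers, 1 S-phase gene was called lower in muscle, and with a mitochondrial limit of 5% the S-phase ratio was -0.080. The medians were -0.15 and -0.54, beside -0.07 over all genes. The library labelled f/w gave only 77 muscle cells here, and 5 of them held 21.8% of its S-phase and 28.3% of its mitotic UMIs, against 1.32% and 2.07% for the 5 richest of 1663 cells.

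Among the S-phase genes of muscle, Mcm2 was at 53.6 CPM in the library labelled f/f and 32.9 in the library labelled f/w, with a ratio of -0.70 (-1.19 to -0.25). Ccne1 was at 178 and 112 CPM, a ratio of -0.67 (-0.93 to -0.43), and E2f2 at 62.0 and 40.2 CPM, a ratio of -0.63 (-1.06 to -0.22). E2f1 had a ratio of -0.53 (-1.22 to 0.08), whose interval holds 0. At the other end were Ung, which removes uracil from DNA, with 0.22 (-0.37 to 0.76), Rrm2, a subunit of ribonucleotide reductase, with 0.18 (-0.08 to 0.43), Pcna with 0.17 (-0.02 to 0.35) and Mcm4 with 0.12 (-0.15 to 0.38). Cdc6, among the lowest in the whole libraries, was at 52.2 CPM in both.

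Among the mitotic genes of muscle, Bub1b was at 46.5 and 21.7 CPM, a ratio of -1.10 (-1.71 to -0.55). Kif23, a motor of the central spindle, had a ratio of -1.01 (-1.66 to -0.43), Bub1, the partner kinase of the checkpoint, -0.94 (-1.58 to -0.37) and Cenpf, a kinetochore protein, -0.90 (-1.19 to -0.63). Ccnb1 went from 90.2 to 55.4 CPM, a ratio of -0.70 (-1.07 to -0.36), and Top2a from 533 to 352 CPM, a ratio of -0.60 (-0.74 to -0.46). Mki67, at 232 and 156 CPM, had a ratio of -0.57 (-0.79 to -0.37) and fell just short of the fold. Birc5 had a ratio of 0.03 (-0.16 to 0.21), Kif20a -0.09, Cks2 -0.14 and Cenpe -0.24, and the interval of each holds 0.

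**Figure D2:**
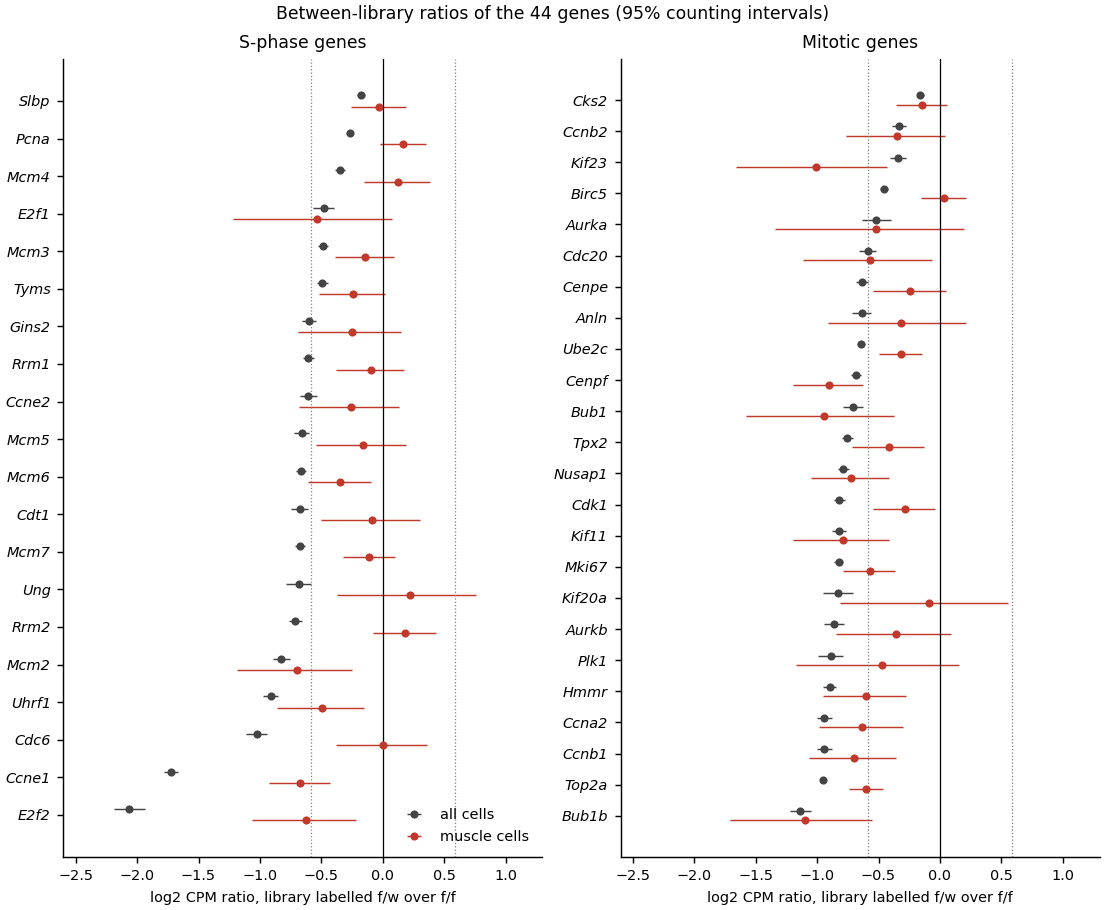
Log2 ratio of each S-phase gene (left) and mitotic gene (right), the library labelled f/w over the library labelled f/f, in all cells (grey) and in muscle cells (red), with exact 95% counting intervals and dotted lines at 1.5-fold. All grey points lie below 0, from -2.06 to -0.16, and the red points of the S-phase genes gather nearer to 0 than those of the mitotic genes.

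The counts of muscle cells in 3 states were not in the same proportion in the 2 libraries, a difference that was not tested. The gap was not the same in each state. Muscle cells were divided into Pax7 cells (a Pax7 UMI and no Myog UMI, 545 and 19 cells in the libraries labelled f/f and f/w), Myog cells (at least 3 Myog UMIs and no Pax7 UMI, 605 and 38 cells) and the others (513 and 20 cells). In Pax7 cells the ratio was 0.13 (0.03 to 0.23) for the S-phase and -0.14 (-0.23 to -0.04) for the mitotic genes. In Myog cells it was 0.05 (-0.08 to 0.18) and -0.67 (-0.80 to -0.56). In the others it was -0.15 (-0.26 to -0.04) and -0.27 (-0.36 to -0.17). The Pax7 ratios also rest on few cells. In the library labelled f/w, 5 of the 19 Pax7 cells held 47.1% of their S-phase and 58.4% of their mitotic UMIs. For 5 of the 545 labelled f/f it was 2.74% and 3.97%. Of the genes compared in Pax7 cells, Uhrf1, Cenpf, Kif11 and Nusap1 were called lower and Cdc6 higher, beside 3.92% lower and 2.81% higher of all genes. In the other muscle cells 3 S-phase genes (Mcm2, Ccne1 and E2f2) and 5 mitotic genes were lower and 0 higher, beside 5.66% and 3.06%. Given the same weights of these states in both libraries, an average added after the data were seen, the ratio over muscle came to 0.02 (-0.05 to 0.08) for the S-phase genes and -0.29 (-0.35 to -0.24) for the mitotic genes. In Myog cells E2f2 was lower and Rrm2 higher of 18 S-phase genes, and 11 of 19 mitotic genes were lower and 0 higher, beside 4.12% lower and 2.99% higher of all genes. The lowest were Bub1b at -1.66 (-3.29 to -0.41), Nusap1, which bundles microtubules, at -1.50 (-2.38 to -0.74) and Cenpf at -1.30 (-1.95 to -0.72). The cells behind the mitotic gap of Myog cells are few. In the library labelled f/w, 5 of the 38 held 61.3% of the mitotic UMIs, and the median cell had 224 CPM against 276 in the library labelled f/f. The share of Myog cells that had at least 2 mitotic UMIs at equal depth gave a ratio of -0.25 (-1.04 to 0.54), which cannot show the gap at this number of cells.

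Within the library labelled f/f, both lists were higher in Pax7 than in Myog cells. Pax7 and Myog chose the cells and are members of neither list. The S-phase level was 2412 CPM in Pax7 cells and 858 in Myog cells, a log2 ratio of 1.49 (1.45 to 1.53), or 2.81-fold. The mitotic level was 3194 and 1616 CPM, a ratio of 0.98 (0.95 to 1.01), or 1.98-fold. The other muscle cells, which can hold UMIs of both Pax7 and Myog, were left out of this comparison. They were at 2235 CPM for the S-phase and 3391 CPM for the mitotic genes, nearer to the Pax7 than to the Myog cells. In Pax7 cells 17 of 20 S-phase and 21 of 24 mitotic genes were called higher and 0 lower, beside 27.6% of 11539 genes higher and 12.7% lower. Ccne1 was at 258 CPM in Pax7 cells and 55.7 in Myog cells, 4.63-fold, and Ung at 30.0 and 6.54 CPM, 4.59-fold. Cdt1, which helps Cdc6 to load the helicase, was at 65.8 and 15.1 CPM, 4.35-fold. The genes that stayed short of the call were Mcm2, E2f1 and E2f2 in the S-phase list and Ccnb2, Ccna2 and Aurka in the mitotic list. E2f2 alone had its point on the other side, at 47.8 CPM in Pax7 cells and 57.0 in Myog cells, a log2 ratio of -0.25 (-0.45 to -0.06). In the library labelled f/w, with 19 and 38 cells, E2f2 was at 50.5 and 35.5 CPM, a ratio of 0.51 (-0.53 to 1.52). There the list ratios of Pax7 over Myog cells were 1.57 (1.41 to 1.73) for the S-phase genes and 1.52 (1.37 to 1.67) for the mitotic genes.

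**Figure D3:**
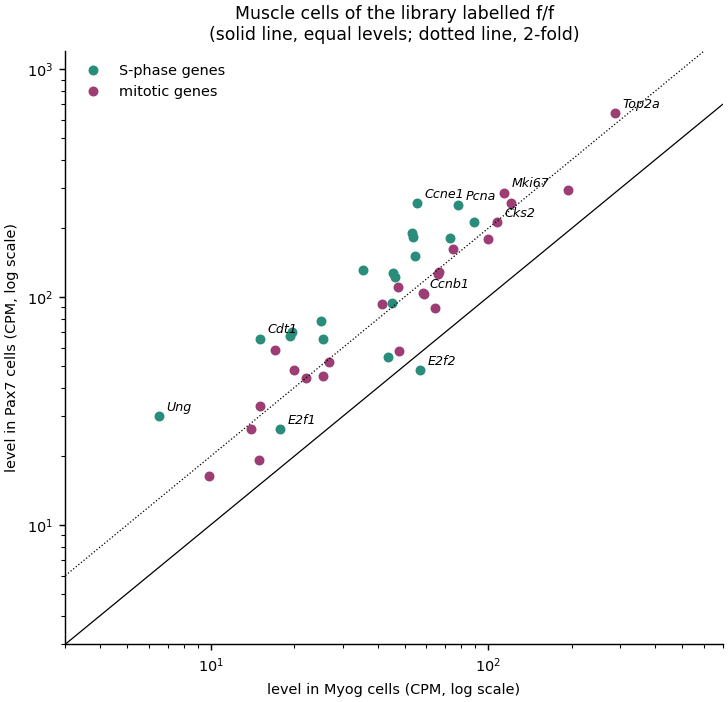
Level of each gene in CPM in Myog cells (x axis, log scale) and in Pax7 cells (y axis, log scale) of the library labelled f/f, S-phase genes in green and mitotic genes in purple. Of the 44 points, E2f2 is the one under the line of equal levels, and most S-phase genes lie above the 2-fold line. Muscle cells that were neither Pax7 nor Myog cells are not shown.

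Genes that hold or release the cell in G1 were taken from a separate list of 12 genes. In the library labelled f/f, Cdkn1a, a Cdk inhibitor, was at 43.2 CPM in Pax7 cells and 633 in Myog cells, a log2 ratio of -3.87 (-4.03 to -3.72), and Rb1, which represses E2F targets, at 12.7 and 197 CPM, a ratio of -3.96 (-4.26 to -3.68). Cdkn1c, another inhibitor, was at 6385 and 13027 CPM. The third inhibitor of the list, Cdkn1b, was higher in Pax7 cells, at 41.2 and 19.2 CPM, a ratio of 1.10 (0.83 to 1.38), as was Rbl1, a relative of Rb1, with 1.79 (1.32 to 2.29). On the same side were the D-type cyclins Ccnd1, at 46.7 and 12.7 CPM, and Ccnd2, at 106 and 30.3 CPM. Between the libraries, over all cells, 4 of the 12 (Cdkn1c, Ccnd3, Cdk2 and Rbl1) were lower and 0 higher, beside 6.27% and 16.2% of all genes. Cdkn1c had a ratio of -0.93 and Ccnd3 of -0.70, while Cdkn1b had 0.44 and Cdkn1a 0.36. In muscle, Rbl1 had a ratio of -1.17 (-2.39 to -0.18), Ccnd1 of -0.79 (-1.45 to -0.19) and Cdk2 of -0.72 (-1.25 to -0.23), and these 3 were the ones called, beside 5.98% of all genes.

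Other genes of both phases, from lists of 30 each, were compared in the same way. Over all cells 11 of 30 S-phase and 13 of 30 mitotic genes were lower and 0 higher, beside 6.27% lower and 16.2% higher of all genes, with medians of -0.51 and -0.56. Among the S-phase genes E2f8, a repressing E2F factor, had a ratio of -1.03, Exo1, an exonuclease of DNA repair, -0.89, and Orc1 and Pold3 -0.20 each. Among the mitotic genes Cdc25b, a phosphatase that activates Cdk1, had a ratio of -1.17 and Spc25, a kinetochore subunit, -0.95, while Gas2l3 had 0.37 and Pttg1, securin, 0.16. In muscle 2 of 29 S-phase genes, near the 5.98% of all genes, and 9 of 27 mitotic genes were lower, with medians of -0.20 and -0.43. Between Pax7 and Myog cells of the library labelled f/f, 29 of 30 S-phase and 22 of 30 mitotic genes of these lists were higher in Pax7 cells, beside 27.6% of all genes, with medians of 1.53 and 0.90, beside 0.21 over all genes. In each list 1 gene was lower in Pax7 cells, E2f8 at 35.0 and 65.1 CPM and Cdc25b at 16.8 and 25.8 CPM.

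To count cells rather than transcripts, each cell with at least 2000 UMIs was thinned to 2000, and a cell was put in a window of a list when it had at least 2 of its UMIs. In muscle, 63.6% of cells of the library labelled f/f (61.2 to 65.9) and 51.9% of the library labelled f/w (40.3 to 63.5) were in the S window, and 55.8% (53.4 to 58.2) and 53.2% (41.5 to 64.7) in the mitotic window. The ratio of the shares was -0.29 (-0.61 to 0.02) for S and -0.07 (-0.38 to 0.24) for mitosis on the log2 scale, so neither gap was detectable as a share of cells with 77 cells. Thinning left out 1 muscle cell of the library labelled f/f and 0 of the library labelled f/w. Without thinning the shares in the mitotic window were 88.8% and 88.3%. In neurons of the libraries labelled f/f and f/w, 16.4% (13.3 to 19.8) and 12.7% (10.6 to 14.9) were in the mitotic window. In the S window were 22.6% and 20.1% of them. Whether these marker-defined cells include dividing ones was not tested, so these shares are not a background level. Erythroid cells of the library labelled f/w held 3 S-phase UMIs in all, over 17 cells with a median of 11237 UMIs. Window calls alone do not show that a cell was cycling.

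Pax7 cells were nearly all in a window, since only 5.50% of those labelled f/f were in neither and 60.6% were in both. In Myog cells 57.9% were in neither. Of the Myog cells labelled f/f, 14.1% were in the mitotic window only, against 8.81% of the Pax7 cells. With the cells in both windows counted too, 31.3% of Myog and 69.4% of Pax7 cells were in the mitotic window. Fibroblasts were in neither window in 42.1% of cells labelled f/f and 50.7% of cells labelled f/w, and chondrocytes in 54.1% and 61.7%. In osteoblasts it was 67.8% of 146 cells and 53.6% of 56 cells. Cells in both windows were deeper, with a median of 16894 UMIs in muscle labelled f/f against 12685 for cells in neither before thinning, and the part of depth in these shares was not tested.

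**Figure D4:**
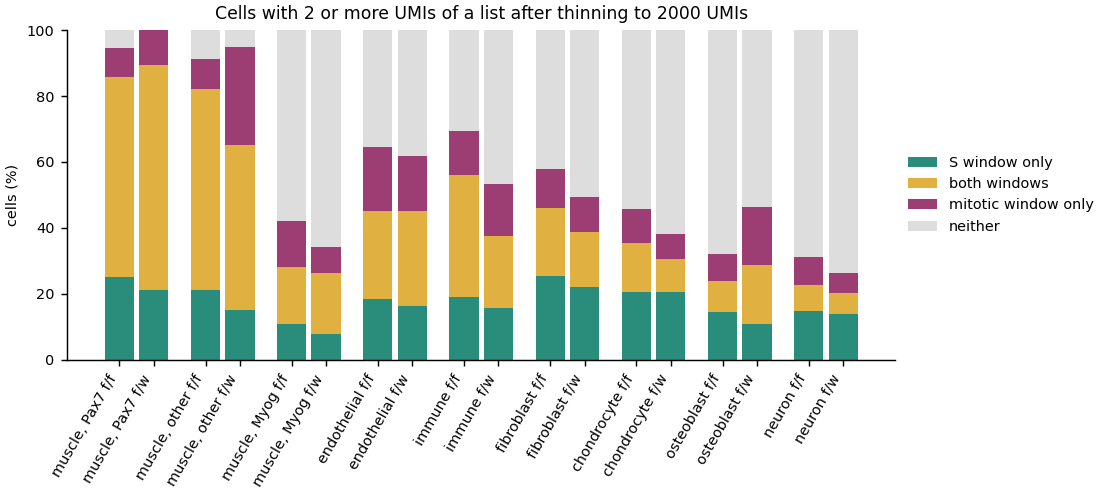
Share of cells (%) in the S window only, in both windows, in the mitotic window only and in neither, for 9 cell types and muscle states in the libraries labelled f/f and f/w, after thinning each cell to 2000 UMIs. Of the Pax7 cells labelled f/f 5.50% are in neither window, while 57.9% of Myog cells and 68.8% of neurons labelled f/f are in neither.

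The windows also show how each gene differed between cells that were in 1 window only. For each gene the windows were set by the other 43 genes only, and its level in cells in the mitotic window only was divided by that in cells in the S window only. In muscle of the library labelled f/f, all 24 mitotic genes were above 0, with a median log2 ratio of 3.29, and 18 of 20 S-phase genes below 0, with a median of -1.14. How many of all genes lay above or below 0 was not counted, here or in the other units below. The other genes of the same lists chose the cells, so these counts describe the windows and do not show that such a split is unusual. In these muscle cells the windows also differed in muscle state. With windows set by both full lists, 85 of the 180 cells in the mitotic window only were Myog and 48 Pax7 cells. Of the 310 cells in the S window only, 65 were Myog and 137 Pax7 cells. Ung was at 30.0 CPM in Pax7 and 6.54 CPM in Myog cells, and E2f2 at 47.8 and 57.0 CPM. The part of muscle state in the muscle ratios, here and for the least bound genes below, was not tested. The most S-bound gene was Ung, at 45.0 CPM in S-window cells and 3.62 in mitotic-window cells, a ratio of -3.64 (-4.72 to -2.72). It was followed by Ccne2, the second E-type cyclin, at -2.36 (-2.99 to -1.79), and Cdc6 at -1.84 (-2.33 to -1.37). Cells in both windows, the largest group, are not in this ratio. In them Ung was at 22.2 CPM, but Ccne2 at 81.2 and Cdc6 at 79.0 CPM. The last 2 were thus above their 51.5 and 56.4 CPM in S-window cells. The most mitotic genes were Kif20a, a motor of cytokinesis, at 5.13 (3.52 to 7.44), Cenpf at 4.71 (4.29 to 5.16) and Plk1 at 4.29 (3.26 to 5.54). Kif20a was at only 0.74 CPM in the S-window cells, and its ratio lay between 2.12 and 4.03 in the other units described below.

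The genes least bound to their own window were E2f2, at 46.2 and 57.9 CPM, a ratio of 0.32 (0.02 to 0.63), Rrm1, the large subunit of ribonucleotide reductase, at 0.02 (-0.21 to 0.25), and Tyms, thymidylate synthase, at -0.03 (-0.26 to 0.20). In cells in neither window E2f2 was still at 32.5 CPM, while Rrm1 was at 11.5 and Ung at 4.68 CPM. In the mitotic list the least bound were Ccnb2, at 1.51 (1.25 to 1.77), Cks2, at 1.72 (1.53 to 1.91), and Mki67, at 1.86 (1.65 to 2.07). Ccnb2 was at 44.5 CPM in the S-window cells of muscle, where Ccnb1 was at 11.9, and in the mitotic-window cells they were at 127 and 177 CPM. The ratio of Ccnb1 was 3.89 (3.47 to 4.35). In 5 other units of type and library, chondrocytes and fibroblasts of both libraries and endothelial cells labelled f/w, all 24 mitotic genes were again above 0, and 14 to 17 of the S-phase genes below 0. Across the genes the order was much as in muscle, with Spearman's rho from 0.85 to 0.93 over 43 or 44 genes, which share their cells and windows and are not independent. E2f2 was the highest S-phase gene in fibroblasts labelled f/f too, at 1.46, but lay below 0 in chondrocytes of both libraries, at -0.15 and -1.19, and in endothelial cells, at -1.11. Rrm1 was the highest in 3 of the others. Ccnb2 was the lowest mitotic gene in muscle only. In the 5 other units its ratio lay between 2.19 and 4.34, and the lowest there was Cks2 or, in chondrocytes labelled f/f, Cdk1.

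**Figure D5:**
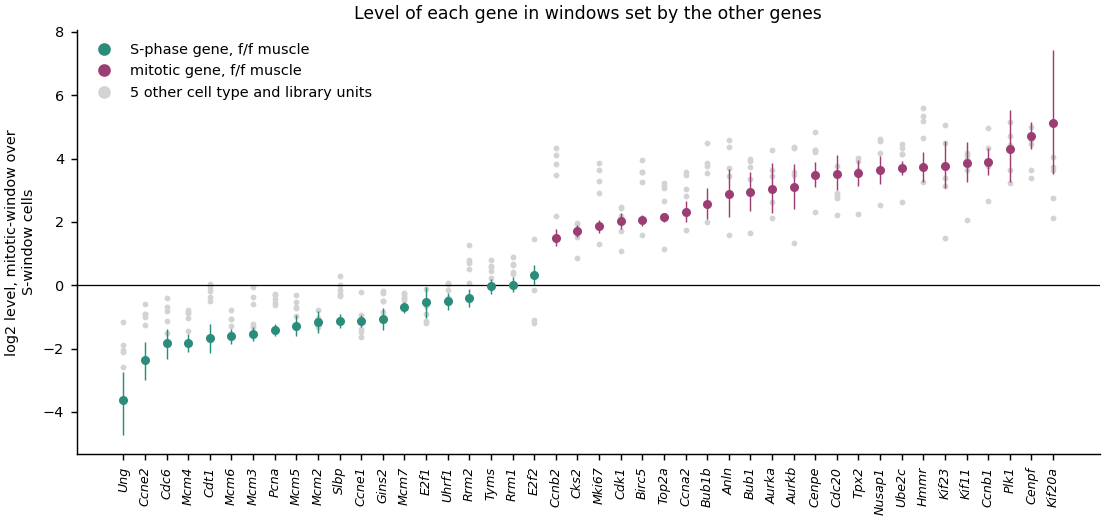
Log2 ratio of each gene's level in cells of the mitotic window only over cells of the S window only, with windows set by the other 43 genes, in muscle cells of the library labelled f/f (coloured, with exact 95% counting intervals) and in 5 other units (grey). In these muscle cells the genes run from Ung at -3.64 to Kif20a at 5.13, with E2f2, Rrm1 and Tyms near 0. Ccnb2 and Cks2 are lowest of the mitotic genes there, but Ccnb2 is not the lowest in any grey unit.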

How the data were processed

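The deposited counts are whole UMIs per gene and barcode, which the authors made by aligning reads to mm10 without introns, counting with Cell Ranger and aggregating both libraries after down-sampling of reads. The file header names Cell Ranger 5.0.0 and the submitters' processing notes name Cell Ranger 3.1.0, STAR and Seurat 3.1.1. Libraries were matched to barcode suffixes by the number of cells in each sample's summary.

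In each library, barcodes whose log10 UMIs or log10 genes lay more than 2 SD from their mean, or with over 10% mitochondrial UMIs, were left out. No doublet caller was run. Cells that reached 3 markers of more than 1 type without a lead of 2 (1409 labelled f/f, 1048 labelled f/w) were set apart, 2626 and 2444 cells had no type, and 1281 of 15341 typed cells lay exactly at 3 markers. Types were rebuilt here and may differ from those of the study. UMIs were summed per library and type and divided by all UMIs of the same cells. Sums have exact Poisson, shares Clopper-Pearson and ratios exact binomial-split intervals at 95%, and ratios of shares and of weighted levels log intervals. A gene was compared where at least 10 UMIs were expected in the smaller library. Intervals were tested on simulated independent Poisson counts, the model that they assume. The simulation had no spread between cells, so the intervals were not tested for that. Python 3.11.15, NumPy 2.4.6, SciPy 1.17.1, pandas 2.3.3 and matplotlib 3.10.9 were used.

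The members, the lists, the markers and the settings were chosen with earlier results of these data known. Genes named are the 4 highest and 4 lowest ratios per list in all cells and muscle, Mki67, Pcna, Ccnb1, E2f1 and Top2a, the 3 extremes per list in the other parts, and the 2 highest and 2 lowest of each further list. Single genes beyond these were chosen after their values were seen.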

Additional observations from a re-analysis of the deposited data

Results flagged for a closer look

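The mitotic genes of osteoblasts went against the other types. They were at 636 CPM (608 to 666) in the library labelled f/f and 781 CPM (729 to 836) in the library labelled f/w, a log2 ratio of 0.30 (0.18 to 0.41), while the ratio of muscle, fibroblasts, chondrocytes, neurons, endothelial cells, immune cells, pericytes, epidermis and erythroid cells was below 0 with an interval that leaves out 0. In Schwann cells the ratio was 0.06 and in neural progenitors 0.16, with intervals that hold 0. The difference between the types was not tested. The cells are few, 146 and 56, and 5 of the 56 held 49.5% of the mitotic UMIs, against 29.4% for 5 of the 146. Of 18 mitotic genes compared there, 3 were called higher (Bub1, Cdk1 and Cks2) and 1 lower (Cenpf), beside 2.22% and 6.57% of all genes. The S-phase genes of osteoblasts had a ratio of -0.11 (-0.26 to 0.04). After thinning, 17.8% (12.0 to 24.99) and 35.7% (23.4 to 49.6) of osteoblasts were in the mitotic window.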

How the results depend on the processing

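No paired analysis was possible because each label has 1 library, and no replicate could be left out. Ratios are log2, and those of Pax7 over Myog cells are from the library labelled f/f unless said otherwise. With a mitochondrial limit of 5%, the S-phase ratio in muscle was -0.080 and that of Pax7 over Myog cells 1.32, and the mitotic ratio was -0.71 in all cells, -0.39 in muscle, -0.42 with the type mix held and 0.68 for Pax7 over Myog cells. Without haemoglobin, mitochondrial and ribosomal protein genes in the denominator, the S-phase ratios were -0.62 in all cells and 1.40 for Pax7 over Myog cells, and the mitotic ratios -0.72 and 0.89. Without the member with the most UMIs (Pcna or Top2a), the S-phase ratios were -0.64 in all cells and -0.30 with the type mix held, and the mitotic ratios -0.64 and -0.37, with 0.94 for Pax7 over Myog cells. With 4 markers for a type, Pax7 over Myog cells gave 1.53 and 1.06. With mixed cells given the type with the most markers, the S-phase ratio of Pax7 over Myog cells was 1.44, the mitotic ratio with the type mix held -0.44, and 1 S-phase gene was called lower in muscle. In the library labelled f/w, Pax7 over Myog cells gave 1.57 and 1.52. Typed cells outside muscle alone, added after the data were seen, gave 2 S-phase and 5 mitotic genes lower in place of 6 and 14. Of 2 more alternatives added then, the mean of single-cell CPM gave -0.60 for the S-phase genes in all cells and 1.65 and 1.07 for Pax7 over Myog cells, and holding the mix of muscle states gave 0.016 (-0.049 to 0.081) for the S-phase genes in muscle, which turned the direction, and -0.29 for the mitotic genes. The other 59 of 88 values under alternatives, and 394 of 396 for single genes, stayed within the counting interval, or for counts within 1.5 times, of the value reported. Causes were not tested where the alternative does not name one. Precision is limited by 1 library per label and by 77 muscle cells in the library labelled f/w.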
